A study of Mus musculus with 6 samples.

Results

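The complement components and regulators described here are C1qa, C1qb, C1qc, C1ra, C3, C4b, C3ar1, Serping1 and Cd59a, 9 genes chosen by name and matched by symbol to the probes of CodeLink mouse whole-genome arrays. Of the 9 genes, 8 had a probe of their own, among 18563 genes with a named probe and 14732 genes tested. C4b had none, because its probe is annotated to C4a as well, and that probe is described as the probe shared by C4a and C4b. The arrays measured muscle RNA from 3 Rpt3-/- mice and 3 control mice, all female and 6 weeks of age, with 1 array per mouse. The labels call the groups Rpt3 null and control and give both the strain name mlc1f-Cre/ Rpt3-floxed. The methods of the study give Mlc1f-Cre/Rpt3+/+ mice as controls, so that both groups carry the Cre transgene and the Rpt3-/- mice have floxed Rpt3 alleles. Cre was driven by the myosin light chain 1 fast promoter, which in the adult is active in fast-twitch fibers only, and its excision is incomplete, so that some fibers can keep Rpt3 and non-muscle cells are not targeted. The labels name the tibialis anterior as the tissue, whereas the text of the study names the gastrocnemius. Levels are log2 intensities after background correction and quantile normalization. A gene was called at an adjusted p under 0.05 from limma, a linear model fitted over all 14732 genes.

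Complement is a cascade of plasma proteins and receptors that marks cells and debris for removal, attracts leukocytes and can open pores in membranes. The classical pathway starts when C1q binds its target and the attached proteases C1r and C1s cleave C4, after which C3 is cleaved by all pathways. C1 inhibitor blocks the proteases, and CD59 on the cell surface blocks the last step, the pore. The liver makes most circulating components, but C1q comes mainly from macrophages, and in injured muscle macrophages clear damaged fibers.

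The targeted gene, Psmc4, encodes the proteasome subunit Rpt3, a part of the 19S cap. Its brighter probe read 10.01, 9.78 and 9.85 in Rpt3-/- muscle and 11.16, 10.91 and 11.06 in control muscle. The groups did not overlap, and the log2 fold change of this probe was -1.17 (standard error 0.13, limma adjusted p = 0.00031). A second, dimmer probe gave -0.23 (limma adjusted p over probes = 0.399). No source used here places either probe with respect to the floxed exons, and a probe that lies outside them checks no label. All 10 listed skeletal muscle markers, such as Ckm, Acta1 and Atp2a1, were bright, at log2 intensities between 12.95 and 14.86. Of these 10 markers, Myl1 at -0.85 (limma adjusted p = 0.00379) and Actn3 at -0.64 (0.00657), both of fast-twitch fibers, were lower in Rpt3-/- muscle. Of all tested genes 6.56% were called lower. The part of this muscle shift in the values of the complement genes was not tested. The other 8 markers did not pass. Among them Ckm, Acta1, Atp2a1 and Tnnc2 each reached 14.86 on some array, the top of the normalized range. That ceiling limits the differences they can show. The share of probes above background was 69.2% to 72.7% in Rpt3-/- mice and 74.5%, 57.0% and 66.6% on the control arrays, the second of which was the dimmest.

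Transcripts of C1q, C1ra, C3, the receptor C3ar1 and C1 inhibitor were higher in Rpt3-/- muscle, with the largest fold changes among the members in the 3 chains of C1q. Of the 8 members with their own probe, 7 passed the test and all 7 were higher, whereas 12.7% of all tested genes were called higher and 6.56% lower. Cd59a did not pass. All 8 probes were above background on all 6 arrays, so no member owed its place to a filter on dim signals. In the 7 called genes each Rpt3-/- array lay above each control array, which held for 21.2% of all tested genes. The median log2 fold change of the 8 genes was 1.10, against -0.01 for all tested genes. The 7 genes also passed the unpaired parametric test that the statistics section of the study names (the methods' test) without adjustment. After Benjamini-Hochberg adjustment of that test the 3 C1q genes passed, and C1ra (0.0667), C3ar1 (0.0539), Serping1 (0.0670) and C3 (0.138) did not.

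**Figure D1:**
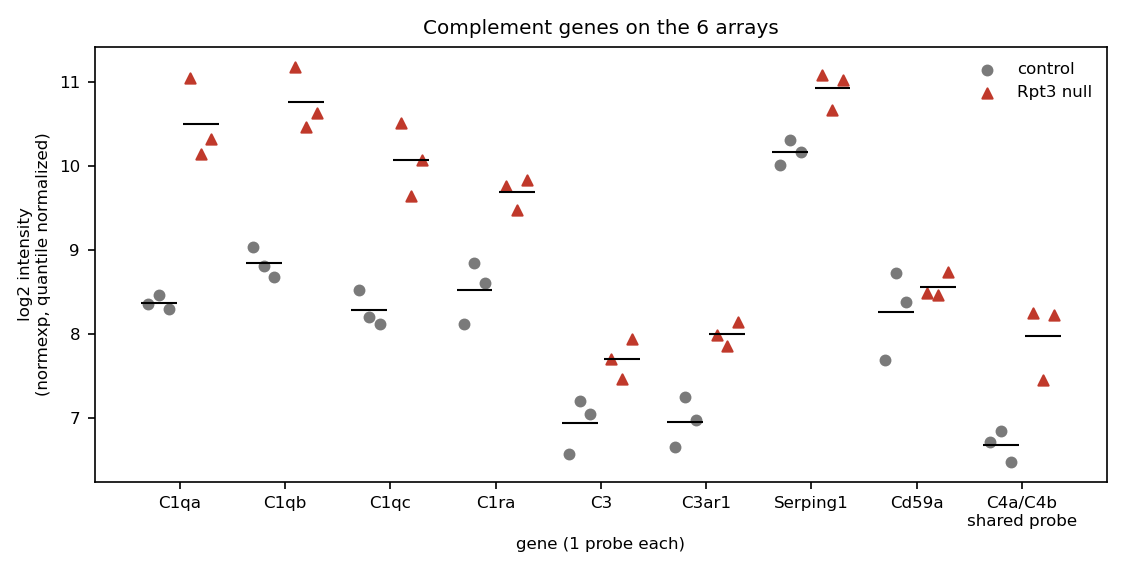
Log2 intensity (vertical axis) of each complement gene (horizontal axis, 1 probe each) on the 3 control arrays (grey circles) and the 3 Rpt3-/- arrays (red triangles), with bars at the group means. Levels of different genes are not comparable with each other, since probes differ. For C1qa the Rpt3-/- arrays lie between 10.14 and 11.04 and the control arrays between 8.29 and 8.46, whereas the groups overlap for Cd59a.

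C1q, the recognition molecule of the classical pathway, is built from the A, B and C chains, and the genes for these chains lie side by side on chromosome 4 in the RefSeq annotation, in the order C1qb, C1qc, C1qa. C1qa, the A chain, read 11.04, 10.14 and 10.32 in Rpt3-/- muscle and 8.35, 8.46 and 8.29 in control muscle. The lowest Rpt3-/- array was thus well above the highest control array, and the controls lay close together. The means were 10.50 ± 0.48 (SD, n = 3) and 8.37 ± 0.087 (SD, n = 3). The log2 fold change was 2.13 (standard error 0.21, limma adjusted p = 0.000159). On a linear scale C1qa was 4.38-fold higher (95% interval 3.16 to 6.07) and ranked 32 of the 14732 tested genes by fold change.

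C1qb, the B chain, read 11.18, 10.46 and 10.63 in Rpt3-/- muscle against 9.04, 8.81 and 8.68 in control muscle. Its log2 fold change was 1.92 (standard error 0.19, limma adjusted p = 0.000165), or 3.78-fold (95% interval 2.81 to 5.08), and it ranked 55. C1qc, the C chain, read 10.51, 9.64 and 10.07 against 8.52, 8.20 and 8.12. Its groups did not overlap either, and its log2 fold change was 1.79 (standard error 0.21, limma adjusted p = 0.000397), or 3.46-fold (95% interval 2.50 to 4.79), at rank 71. The intervals of the 3 chains overlap, and the difference between chains was not tested. In each chain the first Rpt3-/- array was the highest and the second the lowest, with a mean over the 3 chains of 10.91, 10.08 and 10.34 in Rpt3-/- muscle and 8.64, 8.49 and 8.36 in control muscle. Each of the 3 genes was called under all 19 alternative settings of the processing, with log2 fold changes of 1.54 to 2.33 for C1qa, 1.36 to 2.13 for C1qb and 1.20 to 2.02 for C1qc.

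Since the C1q genes are neighbours and moved together, the 250 bases before the start of C1qb and C1qc are shown, from RefSeq on GRCm38.p6. Both genes are on the minus strand, C1qb with chr4:136886201-136886450 and C1qc with chr4:136892915-136893164, and capitals mark a match to a searched motif.
C1qb: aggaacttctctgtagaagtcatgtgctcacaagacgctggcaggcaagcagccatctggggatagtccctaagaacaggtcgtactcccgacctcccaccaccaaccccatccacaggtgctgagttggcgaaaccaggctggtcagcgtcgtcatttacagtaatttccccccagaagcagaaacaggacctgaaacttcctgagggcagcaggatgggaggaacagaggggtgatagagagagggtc
C1qc: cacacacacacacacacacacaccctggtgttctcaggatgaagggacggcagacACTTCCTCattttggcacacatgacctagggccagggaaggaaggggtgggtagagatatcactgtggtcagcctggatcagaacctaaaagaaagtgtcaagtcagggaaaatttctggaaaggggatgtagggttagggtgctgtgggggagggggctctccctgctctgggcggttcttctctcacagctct
The RefSeq table held a promoter for 6 of the 9 genes. Both strands were searched for GAGGAAGT, a motif bound by the myeloid factor PU.1, for the STAT motif TTCNNNGAA, for the interferon motif ISRE (GAAA, then NN, then GAAA) and for the C/EBP motif TTGCNNAA. C1qc held the PU.1 motif on the opposite strand, 195 bases before the start, and 2.44% of the 32851 promoters held it within the same length. None of the 4 motifs was found in these windows of C1qb, C1ra or C3ar1. A match is a run of letters and not a measured binding site.

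C1q is made mainly by macrophages, so the macrophage markers are given beside it. Of 15 tested macrophage markers, 8 were called higher in Rpt3-/- muscle and the other 7 did not pass, whereas 12.7% of all tested genes were called higher. Mpeg1 (limma adjusted p = 0.0414) and Cd53 (0.0496), both among the called markers, were close to the threshold. The summed linear level of the 17 markers with a named probe was 6371 to 7823 in Rpt3-/- mice and 3602 to 4055 in control mice. The brightest markers weigh most in that sum, so it does not describe the list as a whole. In Rpt3-/- muscle these were Ctss and Lyz2, at mean log2 intensities of 10.64 and 10.35, against 7.96 and 8.79 in control muscle. Ms4a7 was not above background on any array, and Csf1r and Cd68 had no probe named here.

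Ctss, the lysosomal protease cathepsin S, had a log2 fold change of 2.68, Lyz2, lysozyme of myeloid cells, of 1.56 and Cd14, a co-receptor for bacterial lipopolysaccharide, of 1.38. Fcer1g and Tyrobp, adaptor chains of myeloid receptors, had 1.41 and 1.17 (0.46 for Tyrobp with Actb centring, limma adjusted p = 0.0754), and Aif1 had 1.31 with 1 of 3 control arrays above background. Among the macrophage markers that did not pass, values were 0.19 for the mannose receptor Mrc1 (limma adjusted p = 0.540), -0.04 for the scavenger receptor Cd163 (0.944) and -0.14 for Cx3cr1 (0.779). The tested macrophage markers had a mean log2 intensity of 8.60, 8.32 and 8.40 in Rpt3-/- muscle, against 7.81, 7.58 and 7.71 in control muscle. The first Rpt3-/- array was the highest and the second the lowest among the Rpt3-/- arrays here too, as for C1q. That order was not particular to the macrophage list. The neutrophil list (7.75, 7.44 and 7.49), the adipocyte list (9.76, 9.47 and 9.60) and Serping1 had it as well. The fibroblast, lymphocyte, endothelial and skeletal muscle lists did not. The part of macrophage number in the C1q values was not tested, and in RNA of whole muscle more cells of a type and more RNA per cell cannot be told apart. Of 5 tested neutrophil markers, S100a8, a calcium-binding protein of neutrophils and monocytes, was higher at 1.10 (limma adjusted p = 0.000314). Retnlg was higher as well (0.0307) but was not above background on any control array. The remaining neutrophil markers were below 0 and did not pass. They were Csf3r at -0.33 (limma adjusted p = 0.0735), Ngp at -0.39 (0.114) and Ltf at -0.05 (0.864). The median log2 fold change of the tested neutrophil markers was -0.05. The summed level of the 7 neutrophil markers with a named probe was 1038 to 1279 in Rpt3-/- mice and 945 to 999.6 in control mice, the defining markers S100a9 and Mpo were not above background on any array, and the part of neutrophils in the values of the members was not tested. The lymphocyte markers Cd3e, Cd8a and Ms4a1 were not above background on any array.

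**Figure D2:**
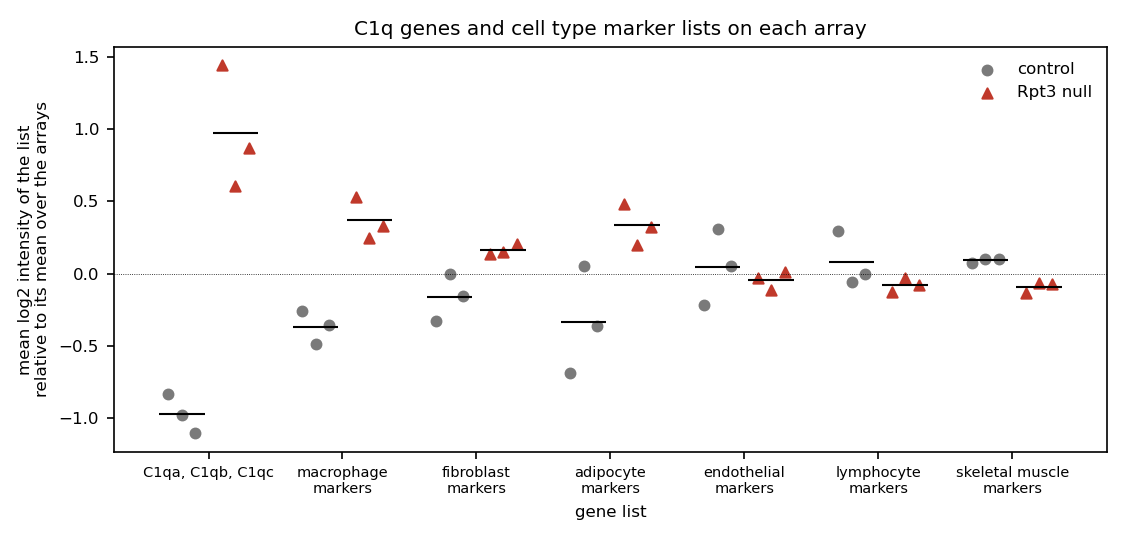
Mean log2 intensity of the 3 C1q genes and of 6 lists of tested cell type markers on each array, relative to each list's mean over the 6 arrays (vertical axis), for control (grey circles) and Rpt3-/- (red triangles) arrays, with bars at the group means. The C1q genes show the widest gap between the groups, beside means of whole lists that include markers that did not pass. The macrophage, fibroblast and adipocyte lists are also higher on each Rpt3-/- array than on each control array. The skeletal muscle list is lower on each Rpt3-/- array, and the groups overlap for the endothelial and lymphocyte lists.

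The genes whose profile over the 6 arrays was most like the mean of the 3 C1q chains were found by the root-mean-square difference of their centred log2 values, leaving out complement genes. The nearest was Ccl6, a chemokine of myeloid cells, at 0.0506, about as near as C1qb itself at 0.0460. Gpx3, a secreted glutathione peroxidase, followed at 0.0948, then Prune2 at 0.103, Tti2, a cofactor for the stability of large PI3K-like kinases, at 0.116, and the metal-binding metallothionein Mt2 at 0.124. The values of C1qc and C1qa were 0.108 and 0.130. Ccl6 read 10.72, 9.99 and 10.20 in Rpt3-/- muscle and 8.44, 8.44 and 8.23 in control muscle. Prune2 was not well above background on any control array. With 6 arrays and 2 groups this is a description of likeness in level and spread.

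C1ra, a mouse gene for the protease C1r that is carried by C1q, read 9.76, 9.47 and 9.83 in Rpt3-/- muscle and 8.11, 8.85 and 8.60 in control muscle. The groups did not overlap, although the controls spread more widely than the Rpt3-/- arrays. The means were 9.69 ± 0.19 (SD, n = 3) and 8.52 ± 0.37 (SD, n = 3). The log2 fold change was 1.17 (standard error 0.19, limma adjusted p = 0.00238), or 2.25-fold (95% interval 1.67 to 3.02). With each array centred on Actb, which encodes β-actin, the log2 fold change of C1ra was 0.56 (limma adjusted p = 0.0276).

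The probe shared by C4a and C4b reports C4, the substrate of the C1 proteases. It read 8.24, 7.45 and 8.22 in Rpt3-/- muscle and 6.71, 6.84 and 6.47 in control muscle, and was above background on 2 of the 3 control arrays. The groups did not overlap. Its log2 fold change was 1.30 (standard error 0.21, limma adjusted p over probes = 0.00345), or 2.46-fold (95% interval 1.77 to 3.42), whereas 9.51% of the 24882 probes were called higher. C4a also had a probe of its own, above background on 4 of the 6 arrays, with a log2 fold change of -0.14 (limma adjusted p = 0.484). Which of the genes gave the signal of the shared probe cannot be told apart, and its signal under plain background subtraction gave a log2 fold change of 2.04. With Actb centring it was 0.58 (limma adjusted p over probes = 0.0247).

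C3, the component on which all pathways converge, read 7.70, 7.46 and 7.93 in Rpt3-/- muscle and 6.57, 7.20 and 7.04 in control muscle. Its scanner intensities were low, at 143 to 200 and 56.2 to 72.9. The groups were apart by a narrow margin, between the second Rpt3-/- array and the second control array. The means were 7.70 ± 0.24 (SD, n = 3) and 6.94 ± 0.33 (SD, n = 3). The log2 fold change was 0.76 (standard error 0.19, limma adjusted p = 0.0182), or 1.69-fold (95% interval 1.27 to 2.26). The call did not hold without the third control array (adjusted p = 0.0541), the first Rpt3-/- array (0.0754) or the third Rpt3-/- array (0.0871), nor with Actb centring, where the log2 fold change was 0.04 (0.890). Under plain background subtraction it was 1.19 (limma adjusted p = 0.0499), since the offset used for dim probes draws their fold changes toward 0.

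C3ar1, the receptor for the C3 fragment that attracts and activates leukocytes, read 7.98, 7.86 and 8.13 in Rpt3-/- muscle and 6.64, 7.25 and 6.97 in control muscle. The groups did not overlap. The log2 fold change was 1.04 (standard error 0.17, limma adjusted p = 0.00211), or 2.05-fold (95% interval 1.59 to 2.66). It passed without any 1 array, with a highest adjusted p of 0.0161, and was 1.55 under plain background subtraction, but 0.33 with Actb centring (adjusted p = 0.191).

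For C3, the 250 bases before the start (RefSeq, GRCm38.p6, minus strand, chr17:57228137-57228386) are shown because 1 of the searched motifs lies close to the start, with that match in capitals.
C3: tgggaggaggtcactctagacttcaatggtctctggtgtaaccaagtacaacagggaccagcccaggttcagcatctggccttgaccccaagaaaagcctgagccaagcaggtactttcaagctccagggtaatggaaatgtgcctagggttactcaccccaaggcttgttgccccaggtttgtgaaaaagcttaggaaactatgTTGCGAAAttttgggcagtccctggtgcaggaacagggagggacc
The match is to the C/EBP motif, begins 45 bases before the start and was found in 9.56% of the 32851 promoters. Cd59a was the other member with a match, the interferon motif, found in 2.98% of promoters, and no member with a promoter held the STAT motif, found in 7.02%.

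Both inhibitors among the members were detected, and the secreted one passed the test. The difference between them was not tested. Serping1, C1 inhibitor, read 11.08, 10.66 and 11.03 in Rpt3-/- muscle and 10.01, 10.31 and 10.16 in control muscle. The groups did not overlap, with means of 10.92 ± 0.23 (SD, n = 3) and 10.16 ± 0.15 (SD, n = 3). The log2 fold change was 0.76 (standard error 0.15, limma adjusted p = 0.00664), or 1.70-fold (95% interval 1.34 to 2.15), and 0.24 with Actb centring (adjusted p = 0.301).

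Cd59a, a membrane-bound inhibitor of the terminal pore, read 8.48, 8.46 and 8.74 in Rpt3-/- muscle and 7.69, 8.72 and 8.38 in control muscle. The second control array was above both of the lower Rpt3-/- arrays, so the groups overlapped. The log2 fold change was 0.30 (standard error 0.23, limma adjusted p = 0.419), with an interval from 0.861-fold to 1.76-fold. That interval holds both no change and the fold change of C3 or Serping1. Without the first control array the log2 fold change was 0.01, and without the second it was 0.54 (limma adjusted p = 0.0700). With Actb centring it was -0.36 (adjusted p = 0.177).

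The first control array was the lowest and the second the highest control for C1ra, C3, C3ar1, Serping1 and Cd59a, but not for the C1q genes. The first control array had the largest and the second the smallest share of probes above background. Without the first control array the log2 fold change was 0.56 for C3 (adjusted p = 0.0196) and 0.87 for C3ar1 (0.000771), both still called by limma. C1ra, C3 and Serping1 are made by fibroblasts as well as by the liver. Of 12 tested fibroblast markers, 4 were higher in Rpt3-/- muscle, among them Pdgfra and Mfap5, and 8 did not pass. Of all tested genes 12.7% were called higher. Among the markers that did not pass, Tcf21 (-0.25), Fap (-0.17) and Thy1 (-0.07) were below 0. The rest lay between 0.14 for Col1a1 and 0.42 for Lum. The summed linear level of the 12 fibroblast markers was 32976 to 34466 in Rpt3-/- mice and 23430 to 27120 in control mice. Pdgfra, a receptor that marks fibroblasts and their progenitors, had a log2 fold change of 0.78 (limma adjusted p = 0.00834), or 0.26 with Actb centring (0.274). Mfap5 was at 0.78 (limma adjusted p = 0.00179), or 0.30 with Actb centring (0.214). In the adjusted methods' test Mfap5 passed (0.0143) and Pdgfra did not (0.0856). The part of fibroblast number in the values of C1ra, C3 and Serping1 was not tested. Of 7 liver and plasma protein genes with a named probe, Alb, Apoa1, Apoa2, Ttr and Fga were not above background on any of the 6 arrays. Ahsg and Fgb were above background and did not pass, at log2 fold changes of -0.12 (limma adjusted p = 0.643) and -0.28 (0.175), and the summed level of the list was 610 to 726 in Rpt3-/- mice and 724 to 754 in control mice.

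**Figure D3:**
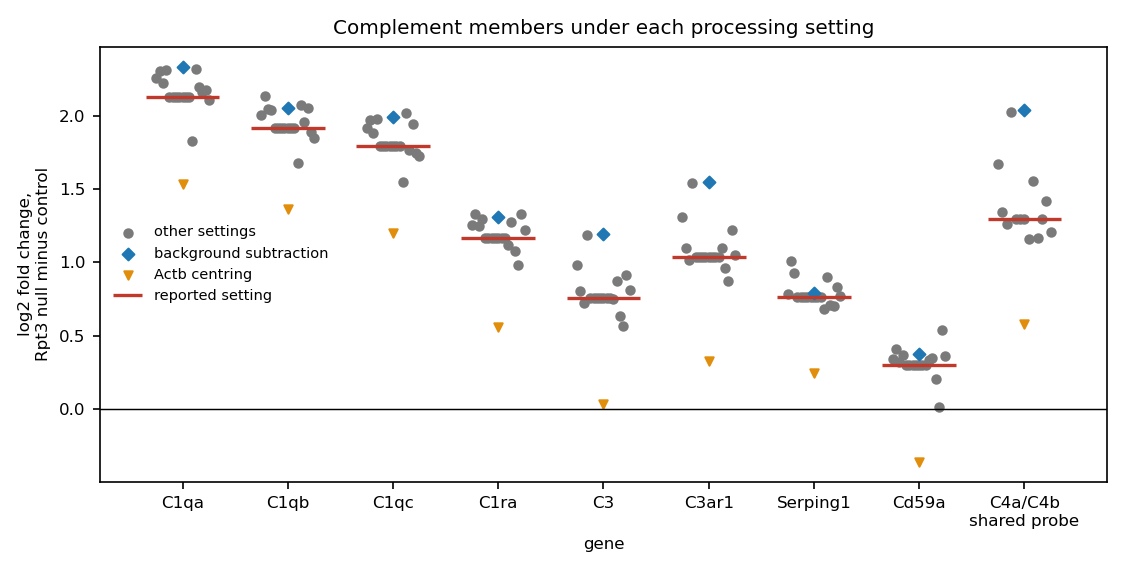
Log2 fold change of each member (vertical axis) under the reported setting (red bar), plain background subtraction (blue diamonds), centring on Actb (orange triangles) and the other settings (grey circles). The C1q genes stay above 1.19 throughout, C3 falls to 0.04 and Cd59a to -0.36 with Actb centring, and C3ar1 reaches 1.55 with background subtraction. With Actb centring the median of all tested genes is -0.72.

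Of the other complement genes on a hand-written list, 45 had a named probe and 30 were tested. Among these 30 genes, 7 passed the test and all 7 were higher in Rpt3-/- muscle, a share to be set against the 12.7% of all tested genes called higher. They were Cfd, Cfb, Clu, Masp1, C5ar2, Fcna and Vsig4. Vsig4 was above background on the 3 Rpt3-/- arrays only, and with the test limited to genes above background on all 6 arrays 5 were called higher. At an unadjusted p under 0.05 limma had 9 higher and 1 lower, the same as the methods' test before adjustment. Over all 14732 tested genes, limma had 2823 higher and 1894 lower at that threshold. After adjustment the methods' test left 3 of the 30 genes higher, with none lower. The groups were apart, with all Rpt3-/- arrays above all controls, for 10 of the 30 genes, against 21.2% of all tested genes. Their median log2 fold change was 0.12, and the genes were spread on both sides of 0, with 18 above and 12 below.

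In the alternative pathway, the amplification loop of complement, 2 of 3 tested genes were higher, against 12.7% of all tested genes. Cfd, factor D or adipsin, is the protease that cleaves factor B and is made above all by adipocytes. It read 10.76, 10.40 and 10.57 in Rpt3-/- muscle and 8.47, 9.48 and 9.07 in control muscle, a difference of 1.57 on the log2 scale (standard error 0.23, limma adjusted p = 0.00122). Cfb, factor B itself, read 7.79, 7.35 and 7.99 against 6.56, 7.16 and 6.52, with 2 of the 3 control arrays above background. Its log2 fold change was 0.97 (limma adjusted p = 0.0103), and its call was lost without the third control array (0.0574), the first Rpt3-/- array (0.0584) or the third Rpt3-/- array (0.0552). Centring on Actb gave 0.25 for Cfb (limma adjusted p = 0.325), and plain background subtraction 1.59 (0.0318). Cfp, properdin, which stabilizes the loop, had 0.27 (adjusted p = 0.332).

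Adipocyte markers are given beside Cfd. Adiponectin, Adipoq, read 10.31, 10.03 and 10.21 in Rpt3-/- muscle and 8.37, 9.53 and 9.01 in control muscle, a log2 fold change of 1.21 (limma adjusted p = 0.00730). The 3 control arrays stood in the same order for Adipoq and for Cfd, the first lowest and the second highest. Of 3 tested adipocyte markers, Adipoq and Retn were called higher, against 12.7% of all tested genes. Cidec was at -0.25 (adjusted p = 0.258) and Lep was not above background on any array. The summed level of the list was 2477 to 2894 in Rpt3-/- mice and 1904 to 2247 in control mice, and the part of adipocytes in the Cfd value was not tested. Retn lost its call when the third control array, or either the first or the third of the Rpt3-/- arrays was left out, with adjusted p-values up to 0.146.

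In the lectin pathway, which starts from sugars on surfaces, 2 of 7 tested genes were called higher, against 12.7% of all tested genes. Masp1, a protease of that pathway, had a log2 fold change of 0.58 (limma adjusted p = 0.0310) and Fcna, ficolin A, of 0.43 (0.0477). Masp1 read 7.16, 7.56 and 7.72 in Rpt3-/- muscle and 6.95, 6.98 and 6.76 in control muscle, and Fcna read 8.41, 8.25 and 8.37 against 7.76, 8.07 and 7.92. Both were close to the threshold. Masp1 did not pass without the third control array (adjusted p = 0.143), the second Rpt3-/- array (0.100) or the third Rpt3-/- array (0.130), and Fcna did not pass without any 1 array other than the second control, with adjusted p-values from 0.0802 to 0.159. Fcna was called under 5 of the 19 alternatives. With Actb centring both fell below 0, at -0.17 and -0.26, with no call. Mbl2, Fcnb, Colec10, Colec11 and Colec12 did not pass, at log2 fold changes between -0.35 and 0.31.

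Among the soluble inhibitors, Clu, clusterin, a chaperone that also binds the terminal complex, read 9.44, 9.59 and 9.67 in Rpt3-/- muscle and 8.995, 8.759 and 8.857 in control muscle. Both groups were tight and apart, and the log2 difference was 0.70 (standard error 0.13, limma adjusted p = 0.00475), which fell to 0.10 with Actb centring (adjusted p = 0.705). Vtn, vitronectin, another soluble inhibitor, was at 0.06 (adjusted p = 0.863).

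The 6 tested membrane inhibitors gave no call, as did Cd59a among the members. Their log2 fold changes were -0.23 for Cd55, -0.31 for Cd55b, -0.10 for Cr1l, 0.04 for Cd59b, -0.06 for Susd4 and -0.36 for Csmd1. At an unadjusted p under 0.05 limma called 1 of the 6 lower, and the methods' test did likewise. Over all tested genes 12.9% had such a lower value. The gene was Csmd1 (limma adjusted p = 0.106), with a fold interval from 0.630 to 0.968. Cd55, which speeds the decay of the enzymes that cleave C3, had an interval from 0.680-fold to 1.07-fold, and Cr1l, the rodent inhibitor Crry, from 0.754-fold to 1.15-fold.

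**Figure D4:**
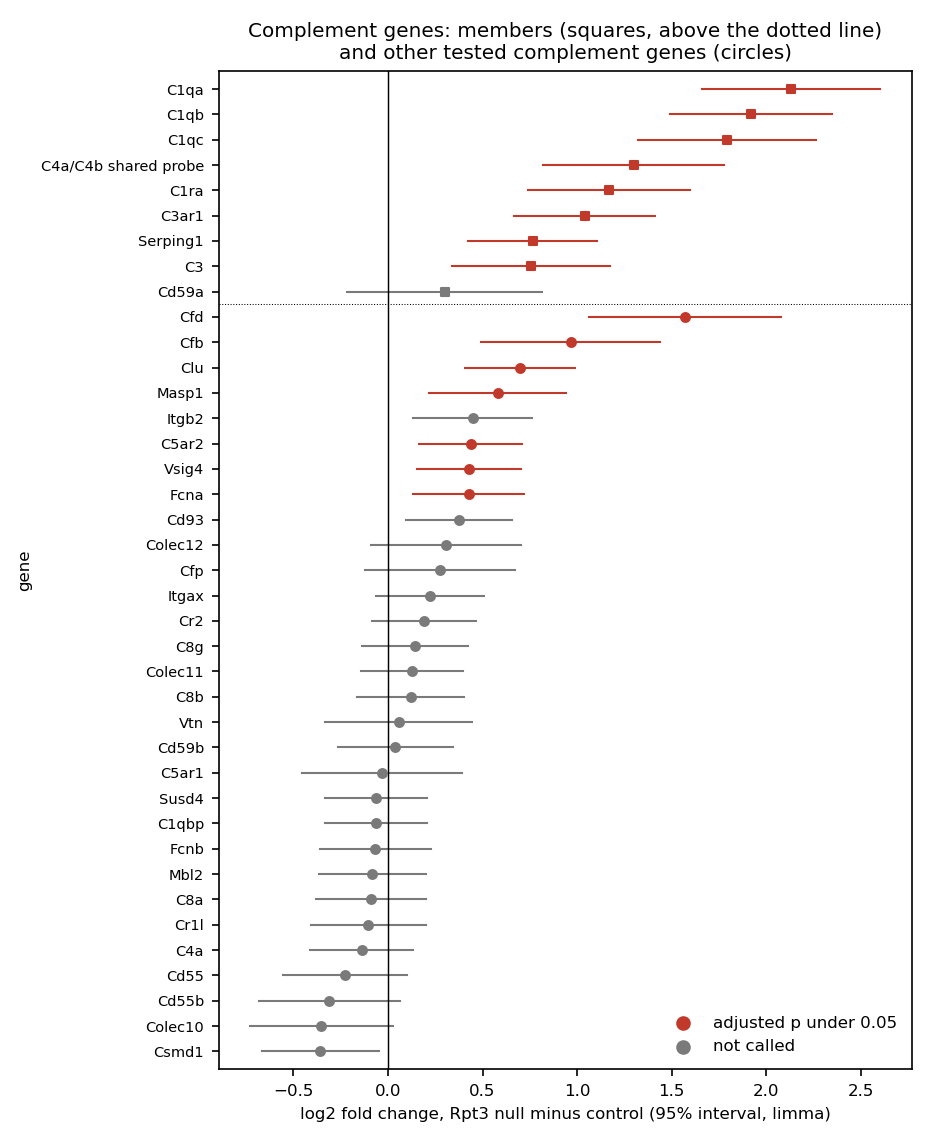
Log2 fold change (horizontal axis, Rpt3-/- minus control, bars for the 95% interval from limma) of the members (squares, above the dotted line) and of the 30 other tested complement genes (circles), in red where the adjusted p is under 0.05. The members run from 0.30 for Cd59a to 2.13 for C1qa, and the other genes from -0.36 for Csmd1 to 1.57 for Cfd.

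Of 8 tested receptors and C1q-binding proteins besides C3ar1, 2 were called higher, against 12.7% of all tested genes. C5ar2, a receptor for the C5 fragment that does not couple to G proteins, read 7.81, 7.65 and 7.73 in Rpt3-/- muscle and 7.26, 7.39 and 7.23 in control muscle, a log2 fold change of 0.44 (limma adjusted p = 0.0323). It did not pass without any 1 of the 3 Rpt3-/- arrays or the third control array, with adjusted p-values from 0.0669 to 0.156, and was -0.30 with Actb centring. Vsig4, the complement receptor CRIg of tissue macrophages, was not well above background on any control array. It was called higher in Rpt3-/- muscle (limma adjusted p = 0.0359). It entered the test only through its signal on the Rpt3-/- arrays, so its call is partly set by the filter. Against the dimmest above-background signal of each control array as a base, Vsig4 was 1.23-fold higher. That value is not a lower limit, since the limma fold interval of Vsig4 ran from 1.11 to 1.63. Vsig4 lost its call without any 1 array other than the second control, with adjusted p-values from 0.0583 to 0.171. With Actb centring its log2 fold change was -0.34. Itgb2, the shared beta chain of complement receptors 3 and 4, was at 0.45 (adjusted p = 0.0513) and Cd93 at 0.38 (0.0627), both with groups apart but not called. C5ar1, the main receptor for the C5 fragment, was at -0.03 (adjusted p = 0.929), with 0.35 for a dimmer probe (0.170 over probes).

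The terminal components, which build the pore, were little represented. Only C8a, C8b and C8g could be tested, at log2 fold changes between -0.09 and 0.14 with no call. Hc, which encodes C5, C6 and C9 were not above background on any array, nor were C2 and the lectin gene Mbl1. Masp2, Cfi, C4bp, Cpb2 and Itgam were above background on fewer than 3 arrays, and C1s1 and C7 had no probe named here.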

How the data were processed

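Muscle RNA of 3 Rpt3 null and 3 control mice was measured on CodeLink arrays with 1 dye, and groups were taken from the sample titles. The authors deposited, per array, scanner reports with the intensity, local background and flag of each spot (CodeLink Expression Analysis 5.0.0.31312), not normalized between arrays, and a value table of intensities. Each column of that table followed its own array (r 0.998 or higher, at most 0.936 with another), all had a median of 89.0, and it served as an alternative. Each mouse is 1 sample per the labels, and the number of arrays limits the precision.

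In R 4.3.3 with limma 3.58.1, the background was corrected by normexp (offset 50), 1260 control spots were left out, arrays were quantile normalized, and lmFit and eBayes were fitted with a two-sided test. Masked or contaminated spots were left out. Of 34967 transcript probes, 21615 had 1 gene symbol in the platform annotation, 681 had several, 536 (C3 among them) were named through their RefSeq accession and 12135 stayed unnamed. Genes entered the test when above background on 3 or more of the 6 arrays, with the brightest probe of each. P-values were adjusted by Benjamini-Hochberg over all tested genes. The shared C4a and C4b probe was fitted with all probes.

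Named were every member, each called gene of the other complement list, the measured genes not called, the 5 genes nearest to the C1q profile, and Psmc4. Ctss, Lyz2 and the other markers named came from fixed marker lists, and those with values were picked after their values were seen. Members and lists were chosen with earlier results of these data known. Sequences come from RefSeq (GRCm38.p6), read with Python 3.11.15 and pandas 2.3.3. The array files name no genome build, and no coordinates of probes are given. Some steps were tested on simulated data. Alternatives were background subtraction, an offset of 16, median, 75th percentile and Actb centring, other filters on dim probes, the value table, averaged probes, eBayes with trend and robust, the replicate number as a block, the methods' test and omission of single arrays. Some genes of these lists are not reported here.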

Additional observations from a re-analysis of the deposited data

How the results depend on the processing

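Of the 8 members, 7 were higher under all 19 alternatives except 4 with Actb centring, 3 with the adjusted methods' test and 6 to 7 when 1 array was left out, and none was lower under any (limma, with 0 at an unadjusted p under 0.05 by limma and by the methods' test). Actb centring moved the median log2 fold change of all genes to -0.72 (329 genes higher and 10328 lower, against 1870 and 967), and all 8 members stayed above that median. Of the other complement genes, 7 were higher in the reported setting, 3 with 75th percentile centring, 1 with Actb centring, 3 with the adjusted methods' test and 2 to 8 when 1 array was left out (2 without the third Rpt3-/- or the third control array, 3 without the first and 4 without the second Rpt3-/- array). With Actb centring 18 were lower, and the unadjusted methods' test gave 1 lower. Among the members and the 7 called genes, the values that turned below 0 with Actb centring were -0.36 for Cd59a, -0.17 for Masp1, -0.26 for Fcna, -0.30 for C5ar2 and -0.34 for Vsig4. Median centring gave 2556 genes higher and 600 lower. The count of genes lower over all genes was 389 to 1444 and that of genes higher 1087 to 2315 when 1 array was left out, and the adjusted methods' test gave 940 and 427. Causes were not tested. Dim probes such as C3 and C3ar1 are limited by signal over background.

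The replicate numbers of the labels did not pair the arrays, since the deviations of same-numbered arrays correlated at 0.13, -0.44 and 0.10. With the replicate number as a block, 7 members and 4 of the other complement genes were higher, against 7 and 7 (C5ar2, Fcna and Vsig4 did not pass), and 1722 genes were higher and 873 lower over all genes.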
